A study of Mus musculus with 12 samples.

Results

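The MYC family and its MAX network are described here in mouse cerebellum and in medulloblastoma, a tumor of the cerebellum. The set holds 10 genes, *Myc*, *Mycn*, *Mycl*, *Max*, *Mlx*, *Mxd1*, *Mxd3*, *Mxd4*, *Mxi1* and *Mnt*, chosen by name from the 24091 genes of the expression table, and all 10 were found there. RNA was sequenced from 12 samples in 4 groups of 3. The tumors came from *Brca2*-mut;*Trp53*-mut mice GB344, GB359 and GB370, and adjacent cerebellum was taken from the same mice. The tumor-free controls were cerebella of *Brca2*-mut;*Trp53*-WT mice GB361, GB508 and GB512 and of *Brca2*-WT;*Trp53*-mut mice GB517, GB519 and GB520, collected at postnatal day 90. In *Brca2*-mut mice the hGFAP-Cre transgene, which acts in neural progenitors of the brain, removed floxed exons 3 and 4, whereas *Trp53* was lost in the whole body of *Trp53*-mut mice. No group was wild type for both genes, so the combined genotype and the tumor cannot be told apart in comparisons with controls. The tumor mice were collected when a tumor or a humane endpoint was reached. The study calls the controls age-matched, and the age of each tumor mouse is not in the sources used here.

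MYC, MYCN and MYCL are transcription factors that bind DNA as dimers with MAX, mainly at the E-box CACGTG, and raise the expression of genes for ribosome production, metabolism and cell division. The MXD proteins (with MXI1) and MNT also pair with MAX, occupy the same sites and recruit SIN3 and histone deacetylases, which lowers transcription. MLX is a MAX-like protein that forms separate dimers with MNT, with some MXD proteins or with the glucose-responsive MondoA and ChREBP. In the developing cerebellum, Sonic hedgehog signaling induces *Mycn* in granule neuron progenitors, and MXD3 is known from these dividing progenitors.

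The promoter sequences that bear on this network are shown first because the E-box is the site that its dimers read. RefSeq promoter windows of GRCm38.p6 (mm10), each with 250 bases before and 50 bases after a transcription start, were at hand for 9 of the 10 genes, *Myc* being the exception. CACGTG, which is its own reverse complement, was found in windows of 4 of these 9 genes, *Max*, *Mxd4*, *Mnt* and *Mlx*, and in 7.15% of all 32851 windows. The motif began 3 bases before the start in *Max*, 40 before it in *Mlx*, 123 before it in *Mnt* and 219 before it in *Mxd4*. A site read by E2F factors, TTTGGCGC on either strand, was found at 2 places in the *Mycn* window, the first beginning 183 and the second 168 bases before the start, and in no window of the other 8 genes. At least 1 copy was present in 0.514% of all windows. The stretches around these motifs follow on the strand of the gene with the motif in capitals. They lie at chr12:12941967-12942049 (minus strand) for *Mycn*, chr12:76962239-76962281 (minus) for *Max*, chr5:34187894-34187959 (minus) for *Mxd4*, chr11:74830771-74830836 (plus) for *Mnt* and chr11:101087220-101087285 (plus) for *Mlx*. A match to these letters is a description of the sequence and not of binding.
Mycn: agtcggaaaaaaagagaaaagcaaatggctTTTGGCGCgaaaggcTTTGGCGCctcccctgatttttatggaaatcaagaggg
Max: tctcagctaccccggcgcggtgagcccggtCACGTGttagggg
Mxd4: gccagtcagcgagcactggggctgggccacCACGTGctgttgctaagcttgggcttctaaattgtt
Mnt: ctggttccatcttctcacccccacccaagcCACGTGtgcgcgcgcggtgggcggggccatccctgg
Mlx: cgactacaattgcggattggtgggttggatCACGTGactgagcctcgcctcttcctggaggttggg

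Levels are in TPM, the share of a library's transcripts that a gene takes after adjustment for transcript length, scaled to the same total in each library, so that genes can be compared within a sample. The read depth behind TPM is unknown, and errors below are the spread between mice. In bulk tissue, fewer cells of a type and less RNA per cell cannot be told apart. The tissue labels were checked against marker genes. All 5 granule progenitor markers and all 6 proliferation markers were higher in tumors than in controls, and all 5 mature granule neuron markers and all 4 Purkinje cell markers were lower. Summed granule progenitor markers were 591 to 1498 TPM in tumors and 34.9 to 41.1 TPM in controls. In the adjacent cerebella of GB344, GB359 and GB370 they were 360, 380 and 67.3 TPM, so all 3 exceeded every control and GB370 lay nearest to them. Choroid plexus markers, in sum, ranged from 11.9 to 5105 TPM among controls and were highest in the 3 *Brca2*-WT;*Trp53*-mut cerebella. *Brca2* and *Trp53* TPM are summed over all transcripts of the gene, which include those that lack the deleted exons, and so do not check the genotypes. Gene *Mir6236* took 4.25 to 11.5% of the TPM of a sample.

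In control cerebellum the network was weighted toward *Max*, *Mxd4* and *Mxi1*. *Max* was at 138 ± 8.92 TPM (SD, n = 6), *Mxd4* at 112 ± 13.3 and *Mxi1* at 54.0 ± 8.70. *Mlx* at 38.0 ± 4.38, *Mnt* at 21.0 ± 2.48 and *Mxd1* at 17.6 ± 2.13 followed. *Max* was above *Mxd4*, *Mxd4* above *Mxi1* and *Mnt* above *Mxd1* in each of the 6 controls. Across controls, the ranges of *Mnt* and *Mxd1* (17.3 to 24.5 and 15.3 to 21.0 TPM) overlapped. Those of *Max* and *Mxd4* (121 to 147 and 97.7 to 136 TPM) overlapped as well. The 3 MYC genes lay lower. *Mycn* at 4.81 ± 1.12 TPM and *Mycl* at 4.57 ± 0.499 TPM could not be ordered, with ranges of 3.49 to 6.67 and 3.78 to 5.03 TPM, and *Myc* was at 2.94 ± 2.40 TPM. *Mxd3* was the lowest of the 10 genes, at 0.774 ± 1.27 TPM.

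**Figure D1:**
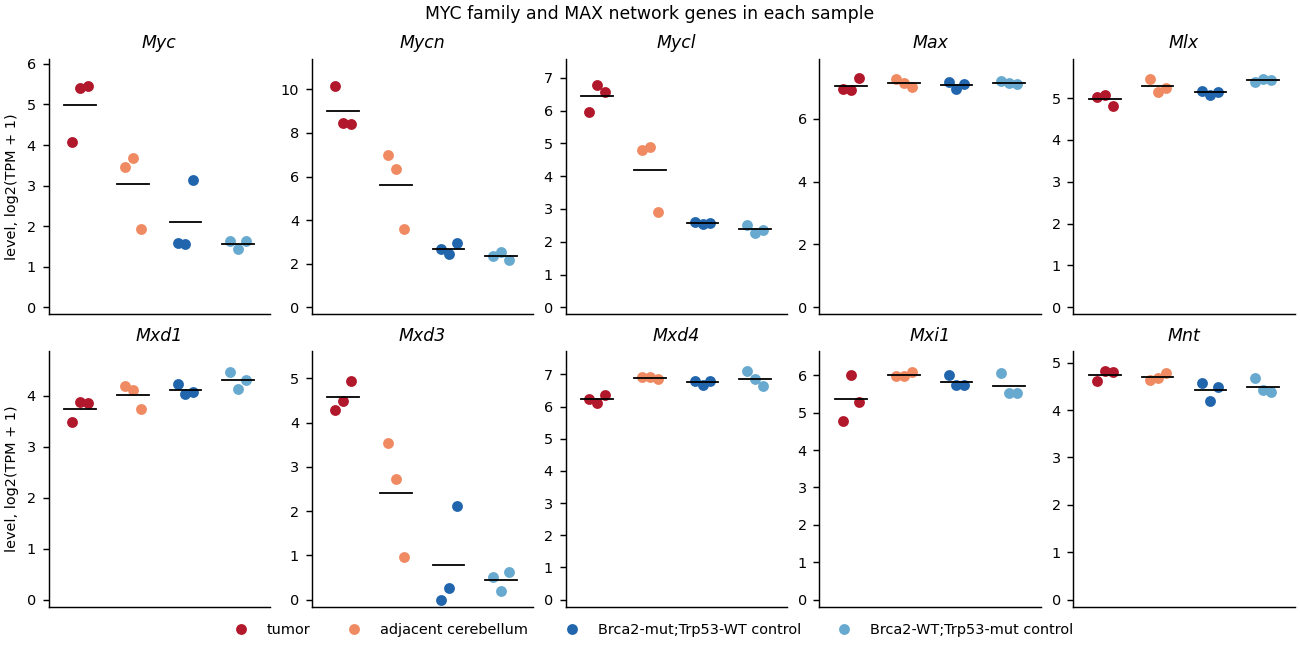
Level of each of the 10 genes in each sample as log2(TPM + 1), with 1 point per sample, a black line at the group mean (n = 3) and colors for the 4 groups. *Mycn*, *Mycl*, *Myc* and *Mxd3* are higher in all 3 tumors than in all 6 controls, with the adjacent cerebella of GB344 and GB359 between them, while *Max* stays between 120 and 156 TPM in all 12 samples.

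The first comparison asked which network genes differ between the 3 tumors and the 6 control cerebella. All 3 MYC genes and *Mxd3* rose, and none of the 10 fell past the call, for which limma had to give an adjusted p under 0.01 and a difference of 1 or more, up or down, on the log2(TPM + 1) scale. The count of 4 of 10 called higher stands beside 14.4% of all 16241 tested genes called higher and 21.5% called lower. The median log2 fold change of the 10 genes was 0.11, against −0.11 for all tested genes. The share of all tested genes whose tumor and control values did not overlap was not counted. Such separation of a gene is thus not shown to be particular to the set.

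*Mycn* (Entrez 18109, chromosome 12, 12936093 to 12941836, minus strand in mm10) had the largest change of the set. It was at 1133 TPM in tumor GB344, 356 in GB359 and 343.9 in GB370, and between 3.49 and 6.67 TPM in the controls. The tumor values did not overlap the controls and the ratio of the group means was 127, or 72.6 without tumor GB344. The log2 fold change was 6.50 (95% confidence interval 5.73 to 7.27, limma adjusted p = 7.56e-08), which ranked 11th of all tested genes.

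*Mycl* (Entrez 16918, chromosome 4, 122995588 to 123002490, plus strand), a paralog of *Myc*, was at 60.7 TPM in tumor GB344, 109 in GB359 and 94.2 in GB370. Controls lay between 3.78 and 5.03 TPM, so that the ratio of means was 19.3. Its log2 fold change of 3.96 had the narrowest interval of the 4 called genes, 3.58 to 4.35 (adjusted p = 2.87e-08).

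*Myc* (Entrez 17869, chromosome 15, 61985341 to 61990361, plus strand) was at 15.9 TPM in tumor GB344, 41.3 in GB359 and 43.1 in GB370. Of the controls, 5 lay between 1.69 and 2.10 TPM, and GB512 was at 7.83 TPM. The groups did not overlap, with a ratio of means of 11.4 (17.1 without GB512) and a log2 fold change of 3.16 (2.22 to 4.09, adjusted p = 5.93e-05). Tumor GB344 thus had the highest *Mycn* and the lowest *Myc* and *Mycl* of the 3 tumors.

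*Mxd3* (Entrez 17121, chromosome 13, 55325170 to 55329900, minus strand) was the only MXD gene that was called. It was at 18.5 TPM in tumor GB344, 21.3 in GB359 and 29.8 in GB370. In the controls it was listed at 0 TPM in GB361, lay between 0.154 and 0.544 in 4 others and was at 3.33 in GB512. The log2 fold change was 3.95 (3.04 to 4.86, adjusted p = 9.22e-06). *Mxd3* overlaps the gene *Prelid1* on the opposite strand in GENCODE, and the strand of the reads was not stated.

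The other repressor genes lay within smaller differences. *Mxd4* (chromosome 5) was at 73.7, 68.3 and 81.3 TPM in the tumors (GB344, GB359, GB370) and at 97.7 to 136 TPM in controls, without overlap. Its log2 fold change of −0.58 (−0.81 to −0.34) had an adjusted p of 0.000629 (limma) and missed the fold minimum. *Mxd1* (chromosome 6) was at 10.2, 13.7 and 13.6 TPM in the tumors and 15.3 to 21.0 TPM in controls, also without overlap, with a log2 fold change of −0.46 (−0.75 to −0.17, limma adjusted p = 0.00927). *Mxi1* (chromosome 19) was the most uneven among tumors, at 26.2 TPM in GB344, 63.4 in GB359 and 38.3 in GB370, against 45.0 to 65.2 TPM in controls (log2 fold change −0.41, adjusted p = 0.141). *Mnt* (chromosome 11), the MXD-like factor made in most cells, overlapped between tumors (23.4 to 27.2 TPM) and controls (17.3 to 24.5 TPM), with a log2 fold change of 0.29 (0.04 to 0.55, adjusted p = 0.0414).

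The shared partners moved little. *Max* (chromosome 12), without which MYC proteins do not bind E-boxes, was at 121, 120 and 156 TPM in the tumors (GB344, GB359, GB370) and at 121 to 147 TPM in controls. Its log2 fold change was −0.06 (−0.28 to 0.16, adjusted p = 0.582), an interval that excludes a log2 difference of 1 in either direction. The sign of this difference turned to 0.02 under median-of-ratios scaling and to 0.11 under quantile normalization. *Mlx* (chromosome 11) was at 27.0 to 33.0 TPM in tumors and 32.8 to 42.7 TPM in controls, with a log2 fold change of −0.30 (−0.56 to −0.05, adjusted p = 0.0338), and it overlaps *Psmc3ip* on the opposite strand.

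**Figure D2:**
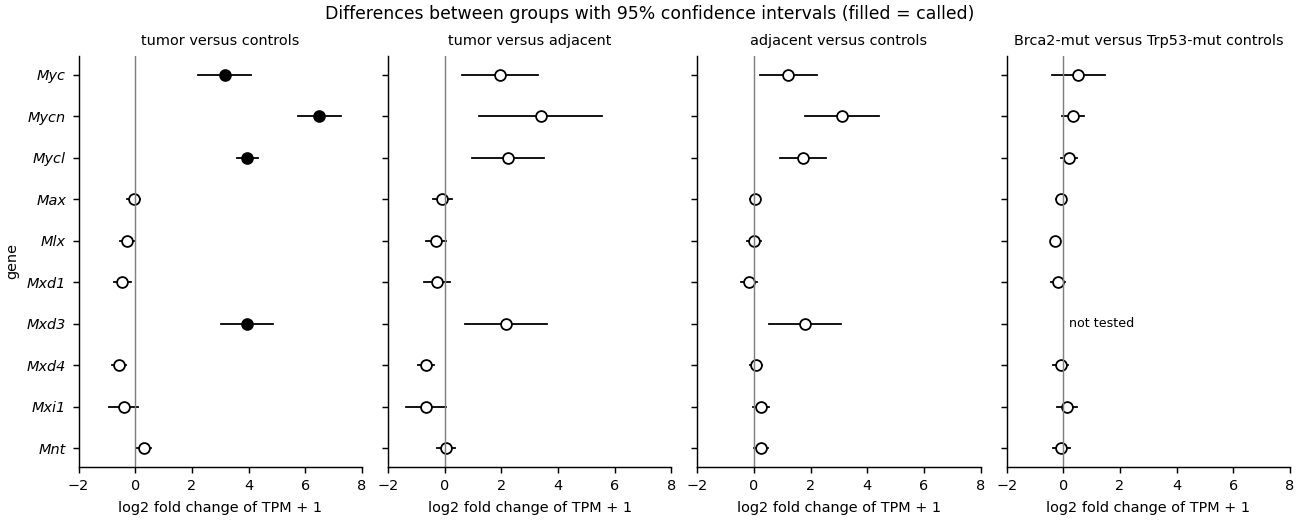
Log2 fold change of TPM + 1 for each gene in the 4 comparisons, with bars for 95% confidence intervals from limma and filled circles for called genes. Only *Myc*, *Mycn*, *Mycl* and *Mxd3* in tumor versus controls are filled, and the intervals of these 4 genes are wide in the comparisons that use adjacent cerebellum.

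The balance between the activating and the repressing partners was described by 2 sums of TPM in each sample, 1 over *Myc*, *Mycn* and *Mycl* and 1 over *Mxd1*, *Mxd3*, *Mxd4*, *Mxi1* and *Mnt*. The MYC sum was 1210 TPM in tumor GB344, 506 in GB359 and 481 in GB370, against 9.73 to 19.4 TPM in the controls. The MXD and MNT sum was 152 to 194 TPM in tumors and 183 to 247 TPM in controls. The ratio of the first to the second was 7.96, 2.61 and 2.53 in tumors GB344, GB359 and GB370 and 0.0440 to 0.0951 in controls, so that MYC transcripts outnumbered those of the repressors in every tumor and in no control. Leaving out *Mnt* gave 2.95 to 9.41 in tumors and 0.0488 to 0.106 in controls. In adjacent cerebella the ratio was 0.696 (GB344), 0.526 (GB359) and 0.0917 (GB370), and the last value lay within the control range. The MYC sum was 10.004, 4.20 and 3.09 times the *Max* level in the tumors, and 0.0711 to 0.142 times *Max* in the controls.

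**Figure D3:**
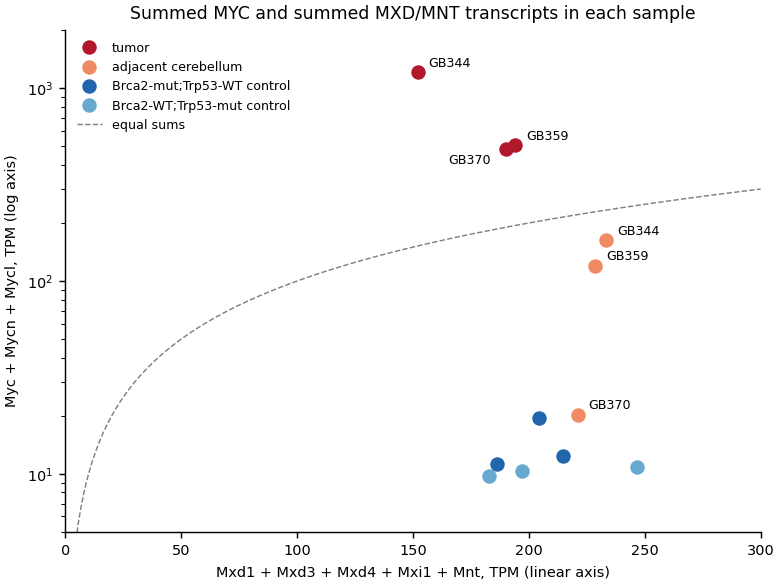
Summed TPM of the 3 MYC genes (log axis) against summed TPM of the 4 MXD-group genes and *Mnt* (linear axis) in the 12 samples, with the line of equal sums dashed. The 3 tumors lie above the line and the other 9 samples below it, and the separation is along the MYC axis, where tumors are at 481 to 1210 TPM and controls at 9.73 to 19.4 TPM.

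The make-up of the sums also differed. *Mycn* supplied 93.7% of the MYC sum in tumor GB344, 70.3% in GB359 and 71.5% in GB370, and 34.3 to 47.0% in controls. *Mycl* supplied 5.02, 21.6 and 19.6% in the same tumors and 25.4 to 43.4% in controls. *Myc* was the smallest part in tumors, at 1.32, 8.15 and 8.97%. On the repressor side *Mxd4* was the largest part in every sample, at 35.2 to 58.3%. *Mxd3* supplied 11.0 to 15.7% of that sum in tumors and at most 1.63% in controls.

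The genes next to *Mycn* and *Myc* on their chromosomes were examined because *Mycn* was highest in tumor GB344. For each gene, the TPM in this tumor was divided by the mean of the other 2 tumors, and over the 14316 genes with at least 1 TPM in each tumor the median of this ratio was 0.917. The ratio was 3.24 for *Mycn* (rank 127), 0.377 for *Myc* (rank 13942) and 0.597 for *Mycl* (rank 12620). No test was made, since it concerns 1 tumor.

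The 3 genes that follow *Mycn* on chromosome 12 had larger ratios to the other tumors than *Mycn*. Relative to the control mean, *Mycn* had the largest rise in GB344, at 235 times. *Ddx1* was at 43.2 times the control mean there, *Nbas* at 15.6 times and *Fam84a* at 5.30 times. *Ddx1*, which encodes an RNA helicase and starts at 13219307, reached 5175 TPM there, with 159 and 184 TPM in the other tumors and 113 to 126 TPM in controls, a ratio of 30.1. *Nbas*, a gene of vesicle transport and RNA decay, was at 364 TPM in GB344, at 14.1 and 16.6 TPM in the other tumors and at 21.4 to 25.0 TPM in controls, a ratio of 23.7. *Fam84a* was at 122 TPM in GB344, at 1.95 and 2.27 TPM in the other tumors and at 18.9 to 28.1 TPM in controls. Its ratio of 57.9 was the highest of all 14316 genes, *Ddx1* ranked 2nd and *Nbas* 6th.

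The genes on either side of this stretch did not share the pattern. *Fam49a*, 0.617 Mb from *Mycn* on the other side, had a ratio of 0.614, and *Trib2*, 2.87 Mb away beyond *Fam84a*, had 0.698. *Smc6* and *Gen1*, at 1.65 and 1.69 Mb, both had 0.81. Relative to the control mean, *Gen1* was at 22.6 times in GB344 (9.99 TPM), and it was at 13.1 and 11.5 TPM in the other tumors. Expression in GB344 above that of the other tumors thus covered 4 consecutive expressed genes from 12936093 to 14152038, and expression of the next gene on each side was below that of the other tumors. *Mycn* itself was high in all 3 tumors, whereas *Ddx1*, *Nbas* and *Fam84a* were not above 184 TPM in the other 2, where *Nbas* and *Fam84a* lay under the control range. Around *Myc* on chromosome 15, the nearest neighbour *Pvt1* was measured in tumors GB344, GB359 and GB370 at 16.6, 11.2 and 14.98 TPM, with controls at 6.86 to 11.6 TPM, and ratios of the 8 neighbours with at least 1 TPM in each tumor ran from 0.590 to 1.48. DNA copy number was not analysed here. The study called copy number by whole-genome sequencing in 4 mouse medulloblastomas, and those results were not used here.

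**Figure D4:**
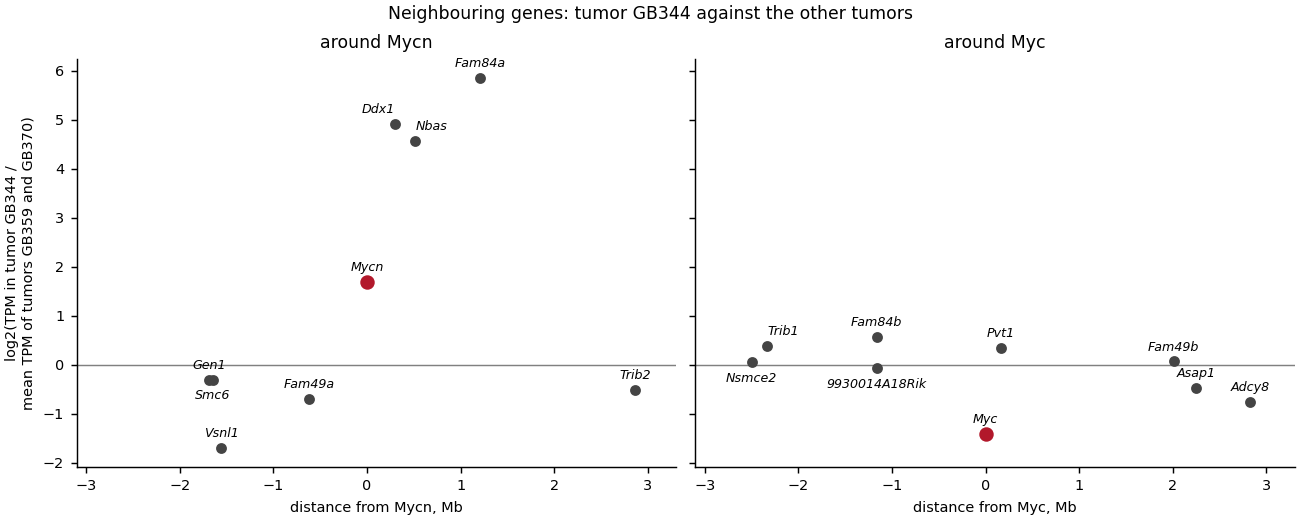
Ratio of TPM in tumor GB344 to the mean of tumors GB359 and GB370, on a log2 axis, for *Mycn* and *Myc* (red) and those of their 5 nearest expressed genes on each side that reach 1 TPM in each tumor (grey), against distance from the gene in Mb. *Mycn*, *Ddx1*, *Nbas* and *Fam84a* form a raised block, with ratios of 3.24, 30.1, 23.7 and 57.9, and no gene around *Myc* exceeds 1.48.

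Of 45 genes that MYC proteins are known to induce, mostly for ribosome production, 31 were called higher in tumors than in controls and 0 lower (limma), with a median log2 fold change of 1.42 against −0.11 for all tested genes. The 14.4% of all genes called higher is the share to read this against. *Ccnd2*, a D-type cyclin, was at 254, 823 and 660 TPM in the tumors (GB344, GB359, GB370) and 3.27 to 15.7 TPM in controls (log2 fold change 6.15, 5.15 to 7.15). *Cdk4*, its kinase, rose from 74.4 ± 12.004 TPM (SD, n = 6) to 729 ± 96.3 TPM (SD, n = 3). *Hk2*, a glycolytic hexokinase, rose by 2.69 on the log2 scale and *Npm1*, a nucleolar chaperone of ribosome assembly, by 2.51. *Ccnd2*, which is also known as a hedgehog-responsive gene of progenitors, was lowest in the tumor with the highest *Mycn*, while *Npm1* was highest there, at 1768 TPM against 1178 and 1572 TPM. In tumor versus adjacent cerebellum 20 of the 45 were called higher and 0 lower, beside 4.76% and 18% of all genes. In adjacent versus control cerebellum 0 of 45 were called (limma), beside 0.224% of all genes higher and 0.0124% lower, and between control genotypes 0 of 45, beside 0.0128% and 0.0449%. Summed proliferation markers moved with these genes, at 1101 to 1266 TPM in tumors and 98.4 to 153 TPM in controls, and their part in the result was not tested.

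Genes of partner proteins were called in the higher direction where they were called. The shares over all tested genes were 14.4% higher and 21.5% lower. Of 9 MYC cofactors 3 were called higher in tumors and 0 lower, namely the AAA+ ATPases *Ruvbl2* (log2 fold change 1.65) and *Ruvbl1* (1.62) and the chromatin adaptor *Wdr5* (1.24), with a list median of 0.57. Of 7 corepressors of the MXD proteins, 4 were called higher and 0 lower, with a median of 1.14. Among them were the histone deacetylases *Hdac2* (1.78) and *Hdac1* (1.40) and the SIN3 complex subunit *Sap30* (1.14). *Hdac2* was at 303 to 328 TPM in tumors and 85.3 to 99.5 TPM in controls.

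Genes whose products set the stability of MYC proteins were called in both directions, 4 of 12 higher and 3 lower in tumors, beside 14.4% and 21.5% of all tested genes, so that the share called lower was near that of all genes. The median log2 fold change was 0.16. Those called higher were the mitotic kinase *Aurka* (4.25), which is known to shield MYCN from degradation, *Plk1* (3.92), *Cip2a* (3.77, listed as *C330027C09Rik*), an inhibitor of the phosphatase PP2A, and the ubiquitin ligase subunit *Skp2* (2.34). *Aurka* was at 54.3, 61.8 and 70.0 TPM in the tumors (GB344, GB359, GB370) and 1.57 to 4.81 TPM in controls. Those called lower were 3 ubiquitin ligase genes. *Fbxw7*, whose product marks phosphorylated MYC and MYCN for destruction, was at 18.1, 20.5 and 20.8 TPM in the tumors and 69.6 to 86.4 TPM in controls, and fell by 1.91 on the log2 scale (1.70 to 2.12, adjusted p = 5.03e-08). *Trim32* fell by 1.48 and *Btrc* by 1.37. *Aurka* and *Plk1* also mark cell division, and *Fbxw7* and *Trim32* fell together with the mature granule neuron markers, which summed to 105 to 370 TPM in tumors and 2366 to 3082 TPM in controls. Their part in the result was not tested.

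Of the 4 further genes of the network, *Bmyc*, which encodes a short MYC-related protein without the DNA-binding part, was called lower and 0 were called higher, where 21.5% of all genes were called lower and 14.4% higher. *Bmyc* was at 44.7, 66.9 and 33.5 TPM in the tumors (GB344, GB359, GB370) and at 104 to 123 TPM in controls, and fell by 1.29 on the log2 scale (0.92 to 1.67). *Mga*, *Mlxip* and *Mlxipl* were not called. Both targets of the MLX branch were called higher, *Txnip*, an inhibitor of glucose uptake, by 2.34 and *Arrdc4* by 1.33. *Txnip* was the only gene of all 6 lists of partners and targets that was also called in adjacent versus control cerebellum, at 83.7, 62.2 and 73.8 TPM in adjacent cerebella GB344, GB359 and GB370 against 17.8 to 29.0 TPM in controls (log2 fold change 1.72, 1.39 to 2.05, limma adjusted p = 0.00537). The call did not hold in every refit, since 0 of 16091 genes were called in this comparison without control GB520.

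The genes most like *Mycn* across the 12 samples, by Pearson's r of log2(TPM + 1) among 16498 genes, included *Nt5dc2*, *Baz1a*, *Eme1* and *Fzd2*, with r between 0.993 and 0.997. Those most like *Myc* were *Kif11*, *Tshz2*, *Sept9*, *Hells* and *Adgre1* (0.981 to 0.985), and those most like *Mxd3* were *Cdca3*, *Cenpa*, *Ccna2*, *Fam64a* and *Pbk* (0.992 to 0.993). *Cenpa*, *Ccna2*, *Cdca3* and *Pbk* are genes of mitosis. These correlations describe the difference between tissues that the 12 samples share and carry no test.

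The second comparison set each tumor beside the cerebellum next to it. By limma, 0 of 10 genes were called in either direction, beside shares of 4.76% higher and 18% lower among all 15845 tested genes. *Mycn*, *Mycl*, *Myc* and *Mxd3* exceeded every adjacent sample in each of the 3 tumors. *Mlx* was lower in every tumor (27.0 to 33.0 TPM) than in every adjacent sample (34.2 to 43.0 TPM). The share of all tested genes without overlap was not counted, so this separation is not shown to be particular to the set. The higher share of the called genes was 20.9% here, 34.7% under median-of-ratios scaling and 43.6% under quantile normalization. At an unadjusted p under 0.05, 9045 genes differed.

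*Mycn* was at 126, 79.8 and 10.9 TPM in the adjacent cerebella of GB344, GB359 and GB370. Against the tumors this gave a log2 fold change of 3.39 (1.22 to 5.55, limma adjusted p = 0.0200), which missed the call. With the mouse as a block the same difference had an adjusted p of 0.00587 (limma) and was called, as the only one of the 10 genes. Of all 15845 tested genes, 701 were called higher and 2841 lower in that fit. *Mycl*, at 26.6, 28.6 and 6.52 TPM in the adjacent samples, had a log2 fold change of 2.24 (0.96 to 3.52, adjusted p = 0.0132 by limma), and without adjacent cerebellum GB370 it was called (1.60, adjusted p = 0.00600 by limma). The fit without this sample called 608 of 15845 genes higher and 2301 lower. *Myc*, at 10.03, 11.9 and 2.83 TPM, gave 1.95 (limma adjusted p = 0.0250), and *Mxd3*, at 10.6, 5.65 and 0.951 TPM, gave 2.16 (limma adjusted p = 0.0245). *Mxd4* was lower in each tumor than in each adjacent sample (114 to 120 TPM), by 0.66 on the log2 scale (limma adjusted p = 0.00354), under the fold minimum.

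The third comparison asked whether adjacent cerebellum differed from the tumor-free controls. Again 0 of 10 genes were called, against 0.224% of 16091 genes called higher and 0.0124% lower, with 5551 genes at an unadjusted p under 0.05. The adjacent samples of GB344 and GB359 were above all controls for *Mycn*, *Mycl*, *Myc* and *Mxd3*, whereas GB370 was above them for *Mycn* (10.9 TPM against at most 6.67) and *Mycl* (6.52 against at most 5.03) and within their range for *Myc* and *Mxd3*. The log2 fold changes were 3.11 for *Mycn* (limma adjusted p = 0.0154), 1.72 for *Mycl* (0.0198), 1.79 for *Mxd3* (0.0596) and 1.203 for *Myc* (0.0916). Without adjacent cerebellum GB370, *Mycn* (4.14, limma adjusted p = 1.24e-05), *Mycl* (2.36, limma adjusted p = 1.24e-05) and *Mxd3* (2.51, limma adjusted p = 0.00801) were called. Of all 16091 tested genes, 564 were called higher and 22 lower in that fit. With GB370 as the only adjacent sample, 0 of 10 were called, and *Mycn* was at 1.06 (limma adjusted p = 0.104).

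The position of each adjacent sample between the control mean and the tumor of its own mouse was described on the TPM scale, with controls at 0% and the tumor at 100%. In GB359 the 4 genes lay close together, at 21.4% (*Mycn*), 22.9% (*Mycl*), 23.4% (*Myc*) and 23.7% (*Mxd3*), and the 6 proliferation markers were at 22.4 to 25.2%. In GB370 the 4 genes were at −0.268 to 2.17% and the proliferation markers at −0.0712 to 1.99%. In GB344, *Mycn* stood at 10.7%, below *Mycl* at 39.3%, *Myc* at 54.6% and *Mxd3* at 55.2%, below all 5 granule progenitor markers (39.8 to 82.0%) and below all 6 proliferation markers (33.5 to 48.7%). The neighbours of *Mycn* that were high in tumor GB344 lay at 0.743% (*Ddx1*, 157 TPM), −0.262% (*Nbas*, 22.4 TPM) and −3.30% (*Fam84a*, 19.8 TPM) in the adjacent sample of that mouse. These positions rest on 1 sample per mouse and were not tested.

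**Figure D5:**
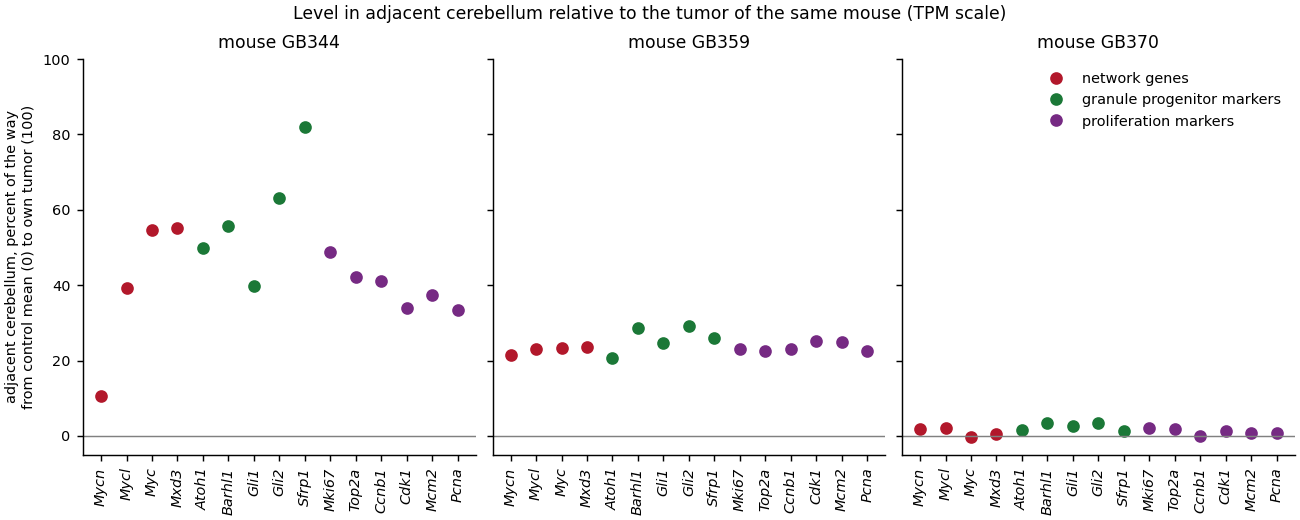
Level of each gene in adjacent cerebellum as a percent of the way from the mean of the 6 controls (0) to the tumor of the same mouse (100), for the network genes that were called in tumors (red), granule progenitor markers (green) and proliferation markers (purple). In GB344, *Mycn* at 10.7% (126 TPM, with 1133 TPM in its tumor) is the lowest of the 15 genes, and in GB359 and GB370 the 4 network genes lie together at 21.4 to 23.7% and −0.268 to 2.17%.

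The fourth comparison set the control genotypes against each other. Both genes differ at once between them, so the effect of either loss alone cannot be told apart. *Mxd3* reached 1 TPM only in GB512 (3.33 TPM, with the other controls at most at 0.544). It thus fell short of the 3 samples required and was not tested. Of the other 9 genes 0 were called (limma), beside 0.0128% of 15575 genes called higher in *Brca2*-mut;*Trp53*-WT cerebellum and 0.0449% lower, with 3123 genes at an unadjusted p under 0.05. *Mlx* had the smallest p of the set. It was at 35.2, 32.8 and 34.4 TPM in GB361, GB508 and GB512 and at 40.5, 42.7 and 42.4 TPM in GB517, GB519 and GB520, a log2 fold change of −0.29 (−0.44 to −0.13, limma adjusted p = 0.0947). *Mycl* also did not overlap, at 4.86 to 5.03 against 3.78 to 4.68 TPM (log2 fold change 0.20, limma adjusted p = 0.401). The share of all tested genes without overlap between control genotypes was not counted. Neither separation is thus shown to be particular to these genes. *Mycn* differed by 0.33 (−0.07 to 0.73) and *Myc* by 0.53 (−0.41 to 1.47), and without GB512 the *Myc* difference was 0.00031. Choroid plexus markers also separated these groups, at 11.9 to 854 TPM in *Brca2*-mut;*Trp53*-WT and 3903 to 5105 TPM in *Brca2*-WT;*Trp53*-mut cerebellum, and their part in the *Mlx* difference was not tested.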

How the data were processed

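RNA from 12 flash-frozen samples was poly(A)-selected and sequenced with 75-base reads. The authors quantified transcripts with Salmon 0.8.1 on the mm10 knownGene set (3.4.0), summed them per gene with tximport 1.20 and deposited TPM. Each sample summed to between 999793 and 999876. No counts were used here, so depth is unknown and no count test was run. Groups and mouse numbers followed the sample labels, and nothing beyond the mouse numbers describes replication.

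A gene entered a comparison when 3 or more of its samples reached 1 TPM, and was tested on log2(TPM + 1), which understates changes of low genes, with limma 3.58.1 (eBayes with trend) in R 4.3.3. Each fit held only the groups compared. The p-values were adjusted by Benjamini-Hochberg across every gene tested, and the study's thresholds were kept (adjusted p under 0.01, log2 change of 1 or more in size). The code was tested on simulated data. Tumor and adjacent samples share a mouse, and deviations from group means correlated within mice at 0.249, 0.176 and 0.152, so a fit with the mouse as a block was also made. The main fit had no block because the study's methods name none.

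The members and gene lists were chosen with earlier results of these data known. From each list, up to 4 called genes in each direction, those with the largest change in tumor versus controls, were named. All 10 members, the neighbours of *Mycn* and *Myc* and the 5 genes most like *Mycn*, *Myc* and *Mxd3* were named too, except for 2 genes that are not reported here. Lists were fixed by symbol, neighbours by RefSeq positions of GRCm38.p6 (5 expressed genes on each side) and motifs by exact letters. Python 3.11.15 was used for the descriptions. Alternatives changed the pseudocount (0.1 or 0.01), the filter, the scaling, the variance trend, the groups in the fit, the thresholds, the control genotype and each replicate.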

Additional observations from a re-analysis of the deposited data

Results flagged for a closer look

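In the 6 control cerebella, 4 of 13 measures had 1 sample farther from its nearest neighbour than Dixon's 95% limit (0.625 of the range) allows, and all 4 were GB512, a *Brca2*-mut;*Trp53*-WT cerebellum. Chance gives this for about 1 group in 20, but the 4 are not separate, since the sum and the ratio below contain the same *Myc* value. *Myc* was at 7.83 TPM there, *Mxd3* at 3.33 TPM, the sum of *Myc*, *Mycn* and *Mycl* at 19.4 TPM and its ratio to the MXD and MNT sum at 0.0951. The sum of *Mycn* and *Mycl* alone was 11.6 TPM in GB512 and 7.63 to 10.4 TPM in the other controls. Summed proliferation markers were 153 TPM in GB512 and 98.4 to 113 TPM in the other controls. Most of this sum was *Pcna*, at 112 TPM in GB512 and 90.1 to 103 TPM in the others. In GB512, *Mki67* was at 5.63 TPM (0.180 to 0.343 in the others) and *Top2a* at 8.42 (0.277 to 0.686). *Ccnb1* was at 9.83 TPM there (0.410 to 0.613), *Cdk1* at 2.72 (0.158 to 0.526) and *Mcm2* at 13.7 (6.97 to 9.48). Granule progenitor markers were 34.9 TPM in GB512 and 37.0 to 41.1 TPM in the others. None of these markers was tested as a source of the flagged values.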

How the results depend on the processing

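*Mycn*, *Mycl*, *Myc* and *Mxd3* were called higher in tumor versus controls under all 21 alternatives, with log2 fold changes of 5.94 to 6.79, 3.79 to 4.23, 2.89 to 3.62 and 3.76 to 6.48. Over all comparisons, there were 30 changes of sign of a member, spread over 18 fits, with 0 of these called in either fit. With an adjusted p under 0.05 and no fold minimum, 8 of 10 members were called in tumor versus controls (11573 of 16241 genes) and 5 in tumor versus adjacent (7980 of 15845 genes). At the same setting, 2 were called in adjacent versus controls (2524 of 16091 genes) and 0 between control genotypes (71 of 15575 genes). These gene counts are the shares to read the member counts against. For tumor versus adjacent, 1 member was called under median-of-ratios scaling, 2 under quantile normalization, 3 with all 4 groups in a fit and 1 with the mouse as a block, which changed no other member's call, and 2 members and 1098 genes were called with GB370 as the lone adjacent sample, an alternative chosen after seeing the data that assumes its spread to be that of the tumors. Leaving out each replicate in turn gave 0 to 1 member and 2377 to 3482 genes. For adjacent versus controls, 38 genes were called in the main fit, 4 without a filter, 65 under median-of-ratios scaling, 59 under quantile normalization, 58 without *Mir6236*, 10 without the variance trend, 4 against *Brca2*-mut;*Trp53*-WT controls alone and 15 with GB370 as the lone adjacent sample. Leaving out a replicate gave 0 to 3 members and 0 to 586 genes. Between control genotypes, 9 genes were called in the main fit, 2 with a pseudocount of 0.01, 3 without a filter, 3 with a minimum of 5 TPM, 4 under median-of-ratios scaling, 3 under quantile normalization, 4 without *Mir6236*, 3 without the trend and 21 with all groups in a fit. Leaving out a replicate gave 4 to 29. The causes were not tested.

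Depth is unknown, so values near 0 TPM, such as *Mxd3* in controls, have no counting error. With 3 samples in a group and adjacent cerebella that differ widely, a member that was not called is not shown to be equal between groups.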
